A study of Homo sapiens with 6 samples.

Results

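The 10 genes described here encode the oxidant-responsive transcription factor NRF2 (gene NFE2L2), its inhibitor KEAP1, 7 enzymes and carriers of the glutathione and thioredoxin systems (GCLC, GCLM, GSR, TXN, TXNRD1, SRXN1 and PRDX1), and CHAC1, an enzyme that degrades glutathione. They were taken as a list of names, with earlier results of these data known, and all 10 of 10 were among the 11048 genes listed in each library. Expression was measured by sequencing of oligo(dT)-enriched RNA from MM1.S, an established human multiple myeloma cell line, which is a cancer of antibody-secreting plasma cells. In 3 groups of 2 libraries each, the cells had received DMSO (the solvent control), 3 µM CCF642 or 3 µM CCF642-34, each for 6 hours, with no other treatment or genetic change named. Both compounds are inhibitors of PDIA1, a disulfide isomerase of the endoplasmic reticulum, and CCF642-34 is an analogue of CCF642. The model is 1 cell line at 1 dose and 1 time, and nothing states whether the 2 libraries of a group came from separate cultures, so p-values measure the spread between these libraries, which may be technical.

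KEAP1 holds NRF2 in the cytosol and directs its ubiquitination, and modification of reactive cysteines of KEAP1 by oxidants or electrophiles lets newly made NRF2 reach the nucleus. There NRF2 pairs with small MAF proteins and binds antioxidant response elements near genes for glutathione synthesis, for thioredoxin recycling and for repair of oxidised thiols, while BACH1 competes for the same elements. CHAC1 works in the other direction, since it cleaves glutathione, and it is known as a target of the ATF4, ATF3 and CHOP factors of the endoplasmic reticulum stress and amino acid responses. Plasma cells, which fold and oxidise large amounts of antibody, depend heavily on thiol chemistry.

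Values are given as CPM, the reads of a gene scaled to the total reads of its library. The DMSO and CCF642 libraries held 20567313 to 22989979 reads. For CCF642-34 the totals, 28459677 and 27797578, are less certain, since the lowest genes of these libraries were inferred to hold 5 and 3 reads. The listed genes took up 99.9% of each of the 6 libraries. All 10 of 10 plasma cell markers were listed, at 27.5 to 4321 CPM for single markers. Of the mature B cell markers 0 of 5 were listed, of the T cell markers 1 of 5 (CD3E, at most 3.19 CPM), of the myeloid markers 1 of 5 (CD68, at most 13.4 CPM) and of the epithelial and stromal markers 4 of 6 (EPCAM, KRT8, COL1A1 and PECAM1, at most 10.53 CPM). The epithelial and stromal markers summed to 6.48 and 7.06 CPM with DMSO, 12.5 and 13.2 with CCF642, and 6.85 and 7.16 with CCF642-34, and COL1A1, a collagen, held 8.99 and 10.53 CPM of the CCF642 sums. Summed over the plasma cell markers, the libraries stood at 9904 and 10003 CPM with DMSO, 7020 and 7054 with CCF642, and 7866 and 7911 with CCF642-34. The markers moved both ways, with 4 higher and 6 lower with CCF642 and 2 higher and 6 lower with CCF642-34. Of all genes, 31.8% were higher and 31.3% lower with CCF642, and 29.7% and 27.9% with CCF642-34. SDC1 had the largest fold decrease of the 10 markers with each compound. It went from 870 and 851 CPM with DMSO to 239 and 252 with CCF642 and 383 and 359 with CCF642-34. JCHAIN, the joining chain of secreted antibodies, went from 4321 and 4316 CPM with DMSO to 1792 and 1875 with CCF642 and 2339 and 2357 with CCF642-34. IRF4, a plasma cell factor, went from 682 and 657 to 1127 and 1147 with CCF642 and 1358 and 1355 with CCF642-34. The part of these marker differences in the results below was not tested. Fold changes are on the scale of log2(CPM + 1) after scaling between libraries, with a standard error (SE), a 95% interval, and an adjusted p from limma fitted over all 11048 genes. A gene was called when its adjusted p was under 0.05.

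With CCF642, 8 of the 10 genes rose and 2 fell, against 63.1% of all genes called (31.8% higher and 31.3% lower). Of these, 4 rose at least 2-fold (CHAC1, SRXN1, NFE2L2 and GCLM), a size reached upward at an unadjusted p under 0.05 by 4.5% of all genes and downward by 1.99% (6.49% in all). With CCF642-34, 8 rose, 1 fell and 1 was not called, against 57.6% of all genes called (29.7% higher and 27.9% lower), and the same 4 genes rose at least 2-fold, as did 2.59% of all genes, with 1.29% lower and 3.88% in all. The median log2 fold change of the 10 genes was 0.51 with CCF642 and 0.48 with CCF642-34, beside −0.01 and 0.01 over all genes. Overlap was read, here and below, on CPM before scaling between libraries. In both comparisons the treated and DMSO libraries did not overlap for 10 of the 10 genes. The same was true of 81.7% and 79.3% of all genes. TXN with CCF642-34 lay below DMSO in CPM, but its log2 fold change after scaling was 0.04. Both comparisons use the same 2 DMSO libraries, so they are given side by side and neither is a repeat of the other.

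**Figure D1:**
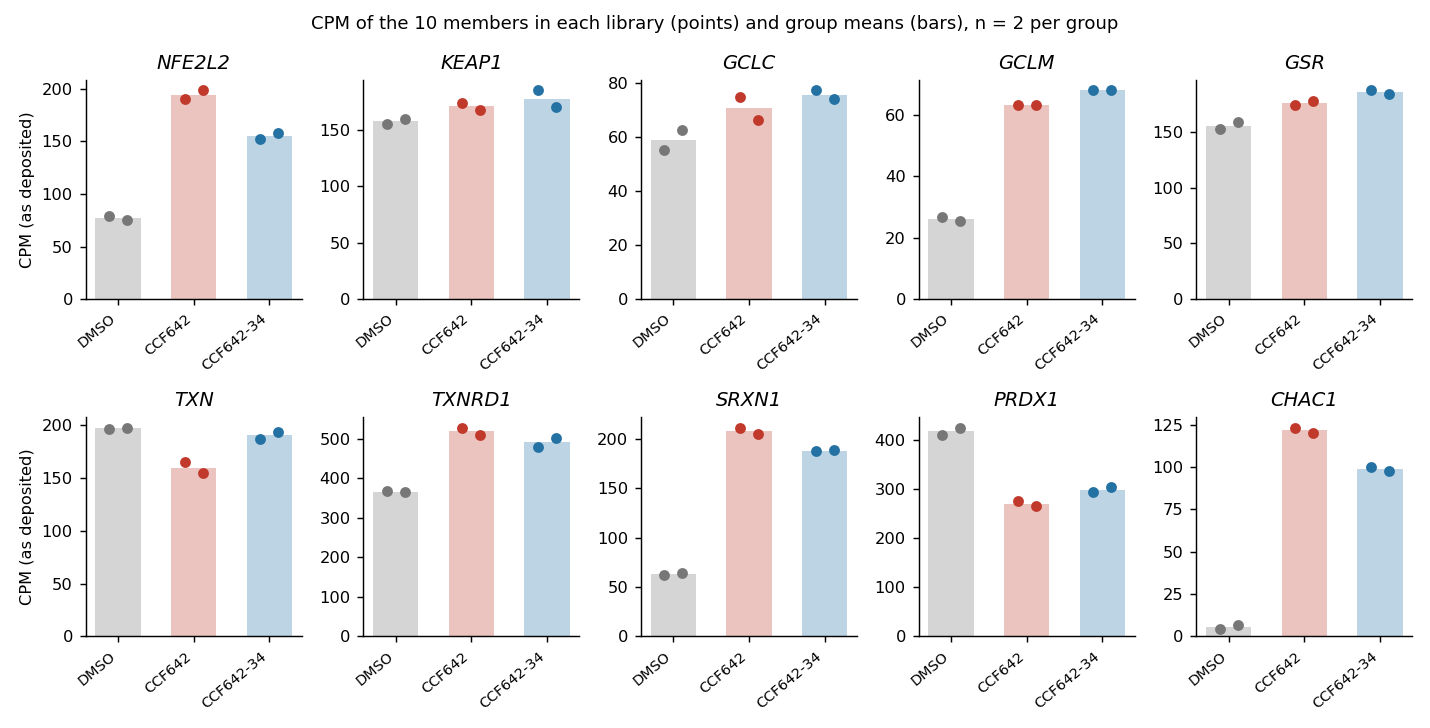
Level of each of the 10 genes in each of the 6 libraries, as CPM on a linear axis, with 1 panel for each gene. Points are libraries and bars reach to the group mean. CHAC1 went from 4.18 and 6.77 CPM with DMSO to about 100 or more with either compound. In these CPM, before scaling between libraries, TXN and PRDX1 were highest in the DMSO libraries.

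Stretches of promoter are shown for 3 of the genes that rose, because their windows hold one of the motifs by which NRF2 or the ATF4 and CHOP factors are known to bind DNA. The windows run from 250 bases before to 50 bases after an annotated gene start in RefSeq (GRCh38.p14), are written along the gene's own strand, and were found for 8 of the 10 genes, in 11 windows. Capitals mark the core of an antioxidant response element, spelled TGACNNNGC, in the GCLM and TXNRD1 windows, and a C/EBP-ATF composite element, spelled TGATGNAA, in the CHAC1 window, each read on either strand.
GCLM, chr1:93909381-93909680, minus strand: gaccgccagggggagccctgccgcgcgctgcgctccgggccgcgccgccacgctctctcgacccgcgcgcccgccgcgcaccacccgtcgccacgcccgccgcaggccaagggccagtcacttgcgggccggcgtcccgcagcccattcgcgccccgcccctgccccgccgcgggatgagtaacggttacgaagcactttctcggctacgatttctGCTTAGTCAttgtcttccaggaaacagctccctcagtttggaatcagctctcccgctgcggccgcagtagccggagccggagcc
TXNRD1, chr12:104215529-104215828, plus strand: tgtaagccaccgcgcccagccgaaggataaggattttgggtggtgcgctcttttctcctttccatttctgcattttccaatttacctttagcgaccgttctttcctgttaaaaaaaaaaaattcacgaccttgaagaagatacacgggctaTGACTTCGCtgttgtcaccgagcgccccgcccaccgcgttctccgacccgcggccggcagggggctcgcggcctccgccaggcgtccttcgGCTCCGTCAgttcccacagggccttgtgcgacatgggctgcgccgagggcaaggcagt
CHAC1, chr15:40953221-40953520, plus strand: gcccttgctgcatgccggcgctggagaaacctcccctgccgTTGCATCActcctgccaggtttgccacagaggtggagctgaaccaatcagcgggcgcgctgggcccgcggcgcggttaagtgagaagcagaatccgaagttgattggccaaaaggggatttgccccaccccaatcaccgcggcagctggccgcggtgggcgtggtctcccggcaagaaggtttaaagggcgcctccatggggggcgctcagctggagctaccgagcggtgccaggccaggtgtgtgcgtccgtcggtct
The GCLM window holds 1 antioxidant core, whose first base lies 34 bases before the start. The TXNRD1 window shown holds 2, at 99 and 8 bases before the start, and the window of a second annotated TXNRD1 start, chr12:104286782-104287081, holds 1 at 102 bases. CHAC1 has its composite element 209 bases before the start. One of the windows of KEAP1, chr19:10502722-10503021 on the minus strand, holds 2 antioxidant cores, at 54 and 31 bases before the start. The windows of NFE2L2, GCLC, TXN and SRXN1 hold neither motif, and none of the 11 windows holds the letters TGACGTCA (a cAMP response element) or CACGTG (an E-box). Over all 35116 promoter windows of the same length, 13.3% hold the antioxidant core, 3.62% the composite element, 1.85% TGACGTCA and 7.26% CACGTG. No match in these windows overlapped another, and a match describes letters, not a bound site.

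NFE2L2, which encodes NRF2 itself, stood at 78.9 and 74.8 CPM in the DMSO libraries, at 190.3 and 198.7 CPM with CCF642 and at 152 and 158 CPM with CCF642-34. The 3 groups did not overlap, and the order was CCF642, CCF642-34, DMSO. The log2 fold change was 1.46 with CCF642 (SE 0.0505, 95% interval 1.36 to 1.56, adjusted p = 3.51e-29), a 2.75-fold rise. For CCF642-34 it was 1.09 (0.99 to 1.19, adjusted p = 7.28e-24), a 2.13-fold rise. Directly compared, NFE2L2 was lower with CCF642-34 than with CCF642 by a log2 difference of −0.37 (−0.47 to −0.27, adjusted p = 9.99e-08). Much of NRF2's known control acts on the protein, which these libraries do not measure.

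KEAP1, the adaptor that hands NRF2 to a CUL3 ubiquitin ligase, was measured at 155 and 159 CPM with DMSO, 173 and 168 CPM with CCF642, and 185 and 169.7 CPM with CCF642-34. Both treated groups lay above DMSO by a small amount and overlapped each other. The log2 fold change was 0.25 (0.15 to 0.35, adjusted p = 1.67e-05) with CCF642 and 0.26 (0.16 to 0.36, adjusted p = 1.05e-05) with CCF642-34. With libraries scaled by size alone they were 0.12 (adjusted p = 0.0322) and 0.17 (adjusted p = 0.00237). Between the compounds KEAP1 was not called (0.01, −0.09 to 0.11, adjusted p = 0.905).

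Glutathione is made by glutamate-cysteine ligase, of which GCLC is the catalytic subunit and GCLM the modifier subunit, and the 2 subunits differed in size of change. GCLM was at 26.7 and 25.3 CPM with DMSO, 63.2 and 63.3 CPM with CCF642, and 68.0 and 68.0 CPM with CCF642-34. Replicates lay close together in each group, and both treated groups lay far above DMSO. GCLM rose 2.60-fold with CCF642 (log2 1.38, 1.24 to 1.52, adjusted p = 7.23e-23) and 2.71-fold with CCF642-34 (log2 1.44, 1.30 to 1.58, adjusted p = 2.34e-23).

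GCLC was at 55.2 and 62.6 CPM with DMSO, 74.8 and 66.5 CPM with CCF642, and 77.3 and 73.9 CPM with CCF642-34. Its groups did not overlap DMSO, but the gap was smallest between the higher DMSO library and the lower CCF642 library. GCLC rose by 0.39 on the log2 scale with CCF642 (0.26 to 0.52, adjusted p = 1.29e-06) and by 0.44 with CCF642-34 (0.31 to 0.58, adjusted p = 1.09e-07), and the first was 0.26 by size alone. Neither subunit was called between the compounds, with log2 differences of 0.06 for GCLM (−0.08 to 0.20, adjusted p = 0.545) and 0.05 for GCLC (−0.08 to 0.19, adjusted p = 0.56).

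GSR, glutathione reductase, returns oxidised glutathione to its reduced form with NADPH. Its levels were 152 and 159 CPM with DMSO, 174.5 and 178 CPM with CCF642, and 188 and 184 CPM with CCF642-34. Before scaling between libraries these 3 groups did not overlap. GSR rose 1.24-fold with CCF642 (log2 0.31, 0.22 to 0.41, adjusted p = 1.15e-07, or 0.18 by size alone) and 1.27-fold with CCF642-34 (log2 0.35, 0.25 to 0.44, adjusted p = 1.51e-08). The difference between the compounds was not called (log2 0.03, −0.06 to 0.13, adjusted p = 0.627).

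In the thioredoxin system the reductase rose while the carrier protein did not. TXNRD1, the cytosolic selenoenzyme that reduces thioredoxin, was at 368 and 365 CPM with DMSO, 528 and 509 CPM with CCF642, and 480.2 and 503 CPM with CCF642-34. All 4 treated libraries exceeded both DMSO libraries, and the rise was 1.55-fold with CCF642 (log2 0.63, 0.56 to 0.71, adjusted p = 2.65e-19) and 1.43-fold with CCF642-34 (log2 0.51, 0.43 to 0.59, adjusted p = 8.27e-16). TXNRD1 was lower with CCF642-34 than with CCF642 by a log2 difference of −0.12 (−0.20 to −0.04, adjusted p = 0.0128), a call lost without CCF642 replicate 1 (−0.10, adjusted p = 0.0539), without CCF642-34 replicate 1 (−0.09, adjusted p = 0.178) and when libraries were scaled by size alone (−0.08, adjusted p = 0.117).

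TXN, thioredoxin 1, was at 197 and 198 CPM with DMSO, 165 and 155 CPM with CCF642, and 187 and 194 CPM with CCF642-34. Both compounds gave lower CPM than DMSO, and the CCF642 libraries were the lowest. With CCF642 the log2 fold change was −0.17 (−0.26 to −0.07, adjusted p = 0.00162), or −0.30 when libraries were scaled by size alone. With CCF642-34 it was 0.04 (−0.06 to 0.13, adjusted p = 0.505), not called, or −0.05 with that scaling. TXN was higher with CCF642-34 than with CCF642 by 0.21 on the log2 scale (0.11 to 0.30, adjusted p = 0.000473). The annotation names 7 pseudogenes after TXN and 1 after PRDX1, whose reads could be shared with these genes.

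SRXN1, sulfiredoxin, restores peroxiredoxins whose catalytic cysteine has been over-oxidised, and it had the highest fold change of the 9 genes other than CHAC1 with each compound. It went from 61.7 and 63.7 CPM with DMSO to 211 and 205 CPM with CCF642 and to 187 and 188 CPM with CCF642-34. The 3 groups were apart, with CCF642 highest. SRXN1 rose 3.60-fold with CCF642 (log2 1.85, 1.75 to 1.95, adjusted p = 7.40e-34) and 3.15-fold with CCF642-34 (log2 1.66, 1.56 to 1.76, adjusted p = 1.06e-31). The direct difference was −0.19 (−0.29 to −0.09, adjusted p = 0.00223).

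PRDX1, a peroxiredoxin that removes hydrogen peroxide and is itself a substrate of sulfiredoxin, moved the opposite way. It was at 410.5 and 426 CPM with DMSO, 276 and 266 CPM with CCF642, and 294 and 305 CPM with CCF642-34. Every treated library lay below both DMSO libraries. PRDX1 fell to 0.712 of its DMSO level with CCF642 (log2 −0.49, −0.57 to −0.41, adjusted p = 1.50e-14) and to 0.762 with CCF642-34 (log2 −0.39, −0.48 to −0.31, adjusted p = 2.16e-11). Between the compounds it was not called (log2 0.10, 0.02 to 0.18, adjusted p = 0.0602), but it was called higher with CCF642-34 when libraries were scaled by size alone (0.14, adjusted p = 0.00549) and without CCF642 replicate 1 (0.12, adjusted p = 0.0255).

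CHAC1, the gamma-glutamylcyclotransferase that cleaves glutathione, changed most of the 10. It was at 4.18 and 6.77 CPM with DMSO (96 and 145 reads), 123 and 120.3 CPM with CCF642, and 100.04 and 97.7 CPM with CCF642-34. The treated libraries agreed closely within each group, and the spread lay in the DMSO libraries. CHAC1 rose 21.1-fold with CCF642 (log2 4.40, SE 0.0945, 4.21 to 4.59, adjusted p = 9.83e-38) and 16.6-fold with CCF642-34 (log2 4.05, 3.86 to 4.24, adjusted p = 4.99e-36).

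Among all 11048 genes ordered by increase, CHAC1 was at rank 5 with CCF642 and rank 6 with CCF642-34. The ranks of SRXN1 were 96 and 82, those of NFE2L2 196 and 220, and those of GCLM 237 and 113. The rise of CHAC1 with CCF642 was 4.10 on the log2 scale without DMSO replicate 1 and 4.69 without DMSO replicate 2, and it kept its call with either DMSO library. CHAC1 was lower with CCF642-34 than with CCF642 by −0.34 (−0.53 to −0.15, adjusted p = 0.00396), a call lost without CCF642-34 replicate 2 (−0.32, adjusted p = 0.0769).

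**Figure D2:**
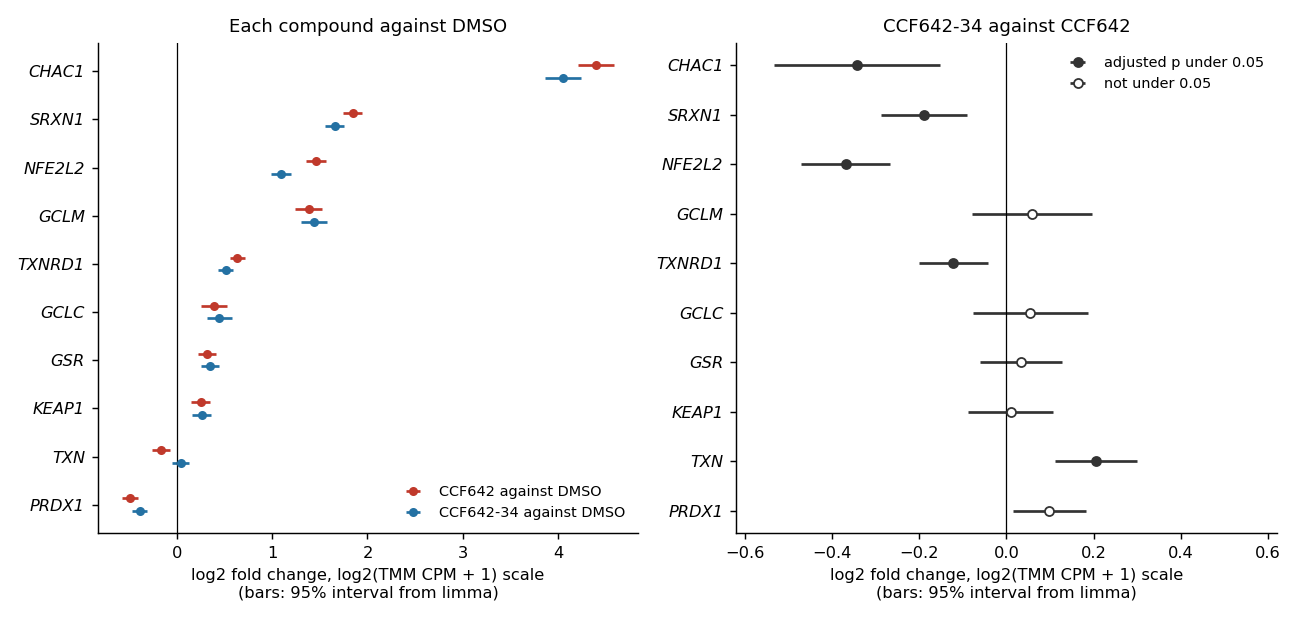
Log2 fold change of each of the 10 genes with CCF642 and with CCF642-34 against DMSO, and between the compounds, as points with 95% intervals from the limma fit. CHAC1 is farthest to the right at 4.40 and 4.05, PRDX1 is to the left at −0.49 and −0.39, and the direct differences all lie between −0.37 and 0.21.

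Between the compounds at the same dose and time, 5 of the 10 genes differed, against 33.4% of all genes called (15.9% higher and 17.5% lower with CCF642-34). NFE2L2, CHAC1, SRXN1 and TXNRD1 were lower with CCF642-34 and TXN was higher. KEAP1, GCLC, GCLM, GSR and PRDX1 were not called, and their intervals reached at most 0.20 in size on the log2 scale, so smaller differences are not excluded. In CPM before scaling, libraries of the compounds did not overlap for 8 of the 10 genes, beside 65.1% of all genes. No gene of the 10 differed 2-fold between the compounds, a size reached by 0.308% of all genes (0.00905% higher and 0.299% lower with CCF642-34).

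Divided by the length of a principal GENCODE transcript, levels can be set beside each other as CPM per kilobase. With DMSO the order ran from PRDX1 (333 and 345 CPM per kilobase) through TXN (226 and 228), TXNRD1 (93.6 and 92.8), KEAP1 (52.5 and 53.9), GSR (47.7 and 49.7), NFE2L2 (27.6 and 26.2), SRXN1 (22.9 and 23.6), GCLC (14.5 and 16.4) and GCLM (5.49 and 5.21) to CHAC1 (2.68 and 4.34). No neighbours overlapped in that order. With CCF642 CHAC1 moved from the lowest place to rank 4, at 79.0 and 77.1 CPM per kilobase, and overlapped SRXN1 at 78.3 and 75.8. With CCF642-34 CHAC1 was at rank 5 with 64.1 and 62.6 CPM per kilobase, and SRXN1 stood above it at 69.4 and 69.8. KEAP1 at 62.6 and 57.4 and GSR at 58.8 and 57.7 overlapped in that group. With the lengths chosen, the top 3 genes, PRDX1, TXN and TXNRD1, held their places in all 3 groups, although PRDX1 came down to 224 and 215 with CCF642. The length chosen for TXNRD1 was 3930 bases and another principal transcript has 1933. Its level per kilobase, and its place among the top 3 with either compound, therefore depend on which is expressed. For KEAP1 the length chosen was 2955 bases and another principal transcript has 2648. The place of CHAC1 above KEAP1 with CCF642-34 depends on that choice too.

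**Figure D3:**
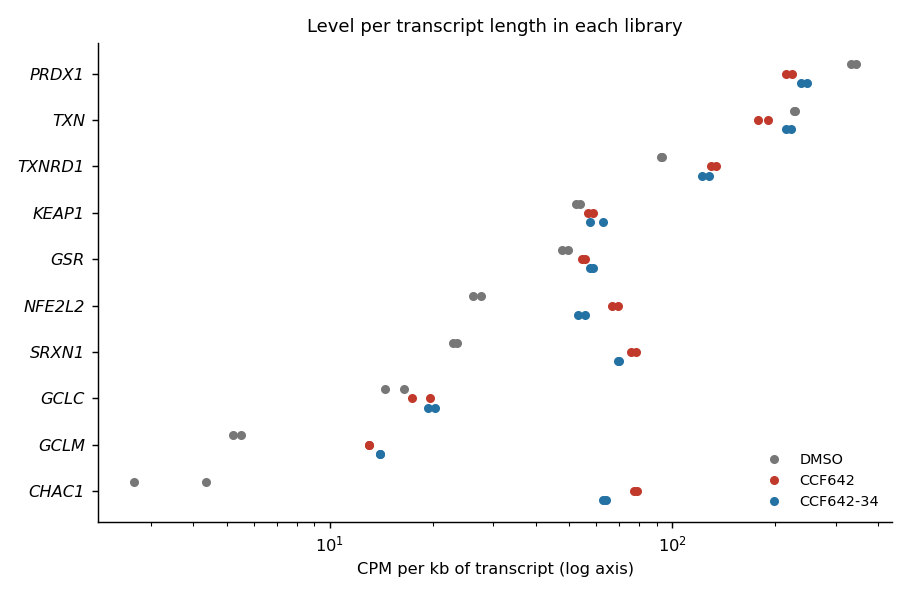
Level of the 10 genes per kilobase of transcript in each library, on a log axis, in the DMSO, CCF642 and CCF642-34 groups. At the transcript lengths chosen, CHAC1 is lowest with DMSO and at rank 4 with CCF642 and rank 5 with CCF642-34, and PRDX1 and TXN are highest.

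For the 5 genes that moved at least 1.5-fold, the genes with the closest pattern over the 6 libraries were sought among those with a mean of at least 8 CPM, by the root mean square difference of log2 values centred on DMSO. For CHAC1 they were ADM2 (a calcitonin-family peptide, difference 0.0996), SESN2 (a sestrin, 0.179) and DUSP8 (a MAP kinase phosphatase, 0.202). ADM2 and DUSP8 averaged 6.18 and 1.44 CPM with DMSO, so they passed the limit of 8 CPM only through the treated libraries. At such levels the 1 added to CPM affects the fold change and so the likeness. SRXN1 was closest to GADD45A (0.0569), CEBPG (0.0661) and GARS (0.0695), and GCLM to RNF41 (0.0422), SARS (0.0437) and HSPA13 (0.0729). GARS and SARS encode the glycyl- and seryl-tRNA synthetases, and CEBPG a C/EBP-family transcription factor. The nearest to NFE2L2 were APOL6 (0.0402), GAB2 (0.0537) and GALNT3 (0.0568), and the nearest to TXNRD1 were COPB2 (0.0119), ALG2 (0.0218) and CEP57 (0.026). These are likenesses over 6 libraries that share their groups, and no test was made of them.

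The transcription factors known to act on CHAC1 rose with both compounds in 4 of 4 cases, each at least 2-fold. Of all genes, 4.5% rose as much with CCF642 and 2.59% with CCF642-34, at an unadjusted p under 0.05. These 4 were listed with earlier results of these data known. ATF3, a stress-induced factor of the ATF family, went from 22.8 and 22.9 CPM with DMSO to 1432 and 1380.3 with CCF642 and 854 and 859 with CCF642-34. DDIT3 (CHOP) had log2 fold changes of 3.42 and 3.32, and CEBPB of 3.48 and 3.22 with CCF642 and CCF642-34. ATF4, the factor translated when eIF2alpha is phosphorylated, rose 2.82-fold with each. Of the 4, ATF3 and CEBPB were called lower with CCF642-34 than with CCF642, as CHAC1 was. ATF4 (0.0005, adjusted p = 0.994) and DDIT3 (−0.10, adjusted p = 0.192) were not called between the compounds.

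Among 14 genes that control NRF2 or pair and compete with it, 7 rose, 3 fell and 4 were not called with CCF642, and 9 rose, 2 fell and 3 were not called with CCF642-34. Of all genes, 31.8% rose and 31.3% fell with CCF642, and 29.7% rose and 27.9% fell with CCF642-34. The median log2 fold changes of the 14 genes were 0.18 and 0.24. MAFF, a small MAF partner of NRF2, rose by 2.53 and 2.21 on the log2 scale, and SQSTM1, the autophagy receptor p62 that binds KEAP1, by 2.41 and 1.90. BACH1, the repressor at antioxidant elements, rose by 1.67 and 1.09 and differed between the compounds by −0.58 (adjusted p = 2.64e-15). NFE2L3, a related factor, fell by 0.85 and 0.96, and MAFK, another small MAF, fell by 0.54 and 0.50.

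Of 19 further genes of glutathione synthesis, use and recycling, 17 were listed. The counts were 7 higher, 5 lower and 5 not called with CCF642 and 8, 4 and 5 with CCF642-34. The shares of all genes were 31.8% higher and 31.3% lower with CCF642, and 29.7% and 27.9% with CCF642-34. SLC7A11, the cystine importer that feeds glutathione synthesis, stood at 27.5 and 22.0 CPM with DMSO, 247 and 238 CPM with CCF642, and 201 and 203 CPM with CCF642-34. It rose 10.4-fold and 8.43-fold, and the difference between the compounds was −0.31 (adjusted p = 0.000104). SLC3A2, its partner chain, rose by 2.30 and 2.14, and these were the 2 genes of the list past 2-fold with each compound. CHAC2, the close relative of CHAC1, went the other way, falling from 22.2 and 18.8 CPM with DMSO to 11.4 and 10.003 with CCF642 and 10.2 and 11.8 with CCF642-34, a log2 fold change of −0.75 with each. GLRX5, a mitochondrial glutaredoxin, fell by 0.54 and 0.34.

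Glutathione transferases, which attach glutathione to electrophiles, did not follow GCLM. Of 15, 11 were listed, of which 0 rose and 7 fell with CCF642, and 0 rose and 1 fell with CCF642-34. Among all genes 31.8% rose and 31.3% fell with CCF642, and 29.7% rose and 27.9% fell with CCF642-34. With libraries scaled by size alone 3 transferases rather than 1 fell with CCF642-34, beside 3972 rather than 3080 of all 11048 genes. MGST3 had log2 fold changes of −0.64 and −0.25 (adjusted p = 0.0129 with CCF642-34, and 0.0523 to 0.0892 without either DMSO library or without CCF642-34 replicate 2). MGST2 had −0.47 with CCF642, not called without CCF642 replicate 2 (−0.30, adjusted p = 0.0841). With CCF642-34 MGST2 had −0.29 (adjusted p = 0.0753, not called), and it was called with library size alone (adjusted p = 0.0222), with only the groups compared (0.0422) and without either CCF642 library (0.0471 and 0.0433). Directly compared, the CCF642-34 libraries had higher levels of 6 of the 11 and lower levels of 0, beside 15.9% and 17.5% of all genes.

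In the rest of the thioredoxin and peroxiredoxin system 15 of 16 genes were listed. For CCF642 3 were higher, 9 lower and 3 not called, and for CCF642-34 4, 4 and 7. Over all genes 31.8% were higher and 31.3% lower with CCF642, and 29.7% and 27.9% with CCF642-34. TXNL1, a thioredoxin-like protein of the proteasome, rose by 0.74 and 0.86. MSRB3, a methionine sulfoxide reductase, had log2 fold changes of −0.78 and −0.43. TXNRD3, a relative of TXNRD1 expressed at 0.62 to 2.43 CPM, was called lower with CCF642 (−0.69) and not with CCF642-34 (−0.30, adjusted p = 0.259). The CCF642 value of TXNRD3 ran from −1.17 to −0.30 over the alternatives, and its call was lost without DMSO replicate 2 (−0.58, adjusted p = 0.0729) and without CCF642 replicate 2 (−0.47, adjusted p = 0.099). TXNDC17, a thioredoxin-domain protein, had log2 fold changes of −0.46 and −0.32, the latter not called when either DMSO library or CCF642-34 replicate 2 was left out. MSRB1, another methionine sulfoxide reductase, had 0.23 (adjusted p = 0.0486) and 0.42, and the first of these was not called under 9 of the alternatives. Between the compounds 9 of the 15 were called, beside 33.4% of all genes, each with its higher level in CCF642-34, as TXN was. That count was 11 with library size alone and 7 with DESeq2 size factors. Of all genes 2406 and 1644 were called higher with these scalings, beside 1758 in the main fit.

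Of 23 other genes known as NRF2 targets 21 were listed. Among these 12 rose, 4 fell and 5 were not called with CCF642, and 13 rose, 3 fell and 5 were not called with CCF642-34. In each, 5 were past 2-fold upward, beside 4.5% of all genes with CCF642 and 2.59% with CCF642-34. Called higher were 31.8% and 29.7% of all genes, and called lower 31.3% and 27.9%. HMOX1, heme oxygenase 1, was at 58.7 and 59.7 CPM with DMSO, 446 and 429 CPM with CCF642, and 1278 and 1234 CPM with CCF642-34. Its difference between the compounds, 1.47 on the log2 scale (adjusted p = 3.99e-31), was opposite in sign to those of NFE2L2, SRXN1 and TXNRD1. OSGIN1, an oxidative stress-induced growth inhibitor, rose by 1.93 and 1.90 from 1.22 and 1.45 CPM with DMSO, and by 1.14 to 2.60 and 1.12 to 2.47 over the alternatives. ABCC4, a multidrug resistance transporter, had log2 fold changes of −0.75 and −0.56, and EPHX1, microsomal epoxide hydrolase, of −0.31 and −0.28. Without DMSO replicate 2 the ABCC4 values were −0.49 and −0.29, and the call for CCF642-34 was lost (adjusted p = 0.127).

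Among 4 genes that remove superoxide and peroxide, 1 rose, 2 fell and 1 was not called with CCF642. With CCF642-34 1 rose, 1 fell and 2 were not called. The shares of all genes were 31.8% higher and 31.3% lower with CCF642, and 29.7% and 27.9% with CCF642-34. SOD2, the mitochondrial superoxide dismutase, fell by 0.75 with CCF642 and 0.63 with CCF642-34. SOD1, the cytosolic form, had log2 fold changes of 0.16 and 0.24, and the first was not called when libraries were scaled by size alone (0.02, adjusted p = 0.639) or without CCF642 replicate 1 (0.08, adjusted p = 0.103), while the second was 0.15 by size alone. CAT, catalase, had −0.28 with CCF642 and −0.03 with CCF642-34 (adjusted p = 0.768, not called). Over the 86 listed genes of these 7 lists, 34 rose and 30 fell with CCF642 and 39 rose and 15 fell with CCF642-34, beside the shares of all genes given above. Scaling by library size alone moved the median of all genes by more than 0.1 with CCF642. Over all 11048 genes it gave 2528 higher and 4738 lower with CCF642, and 2497 and 3972 with CCF642-34. Over the 7 lists it gave 28 higher and 37 lower with CCF642 and 37 higher and 23 lower with CCF642-34, so the lists moved along with all genes. With CCF642 the counts became 7 higher and 6 lower for NRF2 control, 6 and 6 for glutathione synthesis and 1 and 10 for the thioredoxin system. They became 10 and 6 for other NRF2 targets and 0 and 2 for the superoxide genes, and stayed at 0 and 7 for the transferases. With CCF642-34 they became 8 and 4 for NRF2 control and 4 and 7 for the thioredoxin system. That scaling turned the CCF642-34 median of the transferases from 0.03 to −0.06 and that of the superoxide genes from 0.06 to −0.02.

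**Figure D4:**
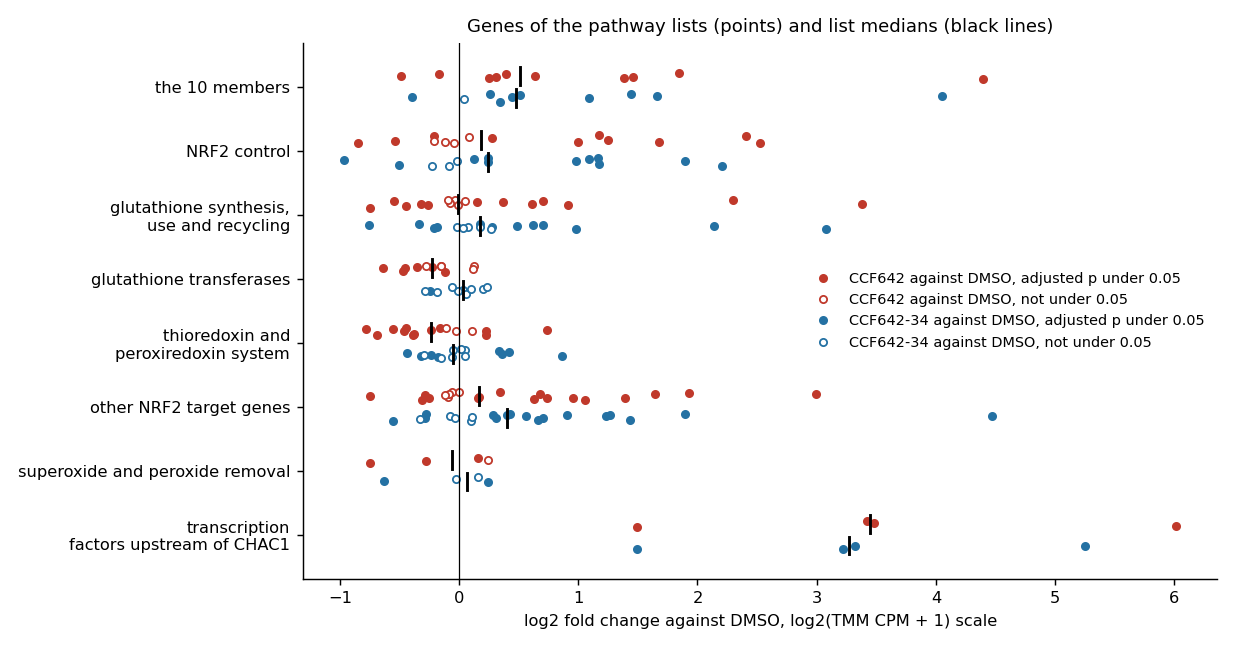
Log2 fold changes of the genes of each list against DMSO, with 1 point for each gene, for CCF642 and CCF642-34, beside those of the 10 genes. The factors upstream of CHAC1 all lie above 1, and the transferases lie between −0.64 and 0.23.

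NFE2L2, GCLC, SRXN1 and PRDX1 share exon positions with another annotated gene (PRDX1 with MMACHC), and whether reads were counted by strand is not given in the sources used here, so reads of such partners cannot be told apart from theirs. In bulk RNA of this kind, a change per cell and a change in the make-up of the culture cannot be told apart either.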

How the data were processed

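RNA-seq was analysed from 6 MM1.S libraries, 2 each with DMSO, CCF642 and CCF642-34, grouped by the sample titles. The authors deposited 1 table of CPM values per library (read counts scaled to the library total), per the file headers by gene symbol, and the submitters' processing notes name STAR, hg19, edgeR 3.24.3 and limma 3.38.3 without their roles. In the DMSO and CCF642 tables low values were whole multiples of 1 read (100% within 0.001), which gave the library totals and whole reads. The lowest gene of the CCF642-34 tables held 5 and 3 reads, so count tests were limited to CCF642 against DMSO. No gene filter was stated, and the lowest highest value of a listed gene was 1.50 CPM. Intervals and totals cover counting error and spread between these libraries only.

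CPM were scaled with TMM factors (0.957 to 1.05), and log2(CPM + 1) was fitted for the 3 groups together in limma 3.58.1 with a mean-variance trend (R 4.3.3, residual degrees of freedom 3, prior 42.9), so a gene's error borrows from all genes. Benjamini-Hochberg adjustment ran over 11048 genes. Fits were tested on simulated data. The pseudocount of 1 understates changes of low genes. Alternatives were library size alone, DESeq2 size factors, pseudocounts of 0.1 and 4, a mean of at least 5 CPM, only the groups compared, a replicate block, each library left out, and edgeR 4.0.16 and DESeq2 1.42.0 on the reads. Replicate numbers were not used to pair the samples in the main fit.

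The 10 genes and the lists were chosen with earlier results of these data known. Named were the 10 genes, up to 2 genes of each list with the largest increase and up to 2 with the largest decrease among those called with either compound, HMOX1, BACH1, ATF4, ATF3 and DDIT3, and for each of the 10 that moved at least 1.5-fold the 3 genes of closest pattern with a mean of at least 8 CPM. SDC1, JCHAIN, IRF4, CD3E, CD68, EPCAM, KRT8, COL1A1 and PECAM1 come from marker lists. Of these, SDC1, JCHAIN, IRF4 and COL1A1 were given values after these were seen. Transcript lengths came from GENCODE and promoters from RefSeq, both on GRCh38, and were matched by symbol. A table of the whole series holding the same values was not used.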

Additional observations from a re-analysis of the deposited data

How the results depend on the processing

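For the 10 genes, 400 of 410 values kept their direction and side of the threshold across the alternatives, and every call against DMSO kept both, 10 with CCF642 and 9 with CCF642-34. Some alternatives could not change a direction, here or for the other named genes. The fold change stays the same with the replicate block, with only the groups compared, and without a library of the third group. TXN with CCF642-34 turned to −0.051 when scaled by library size alone. With 1 library left out at a time, the log2 difference between the compounds ran from −0.055 (CCF642-34 replicate 1 left out) to 0.075 for KEAP1, also −0.0098 with CCF642 replicate 2 left out, and from −0.025 (CCF642 replicate 2) to 0.13 for GCLC, none of them called. In the same way CAT with CCF642-34 ran from −0.080 to 0.025 (DMSO replicate 1). The causes were not tested. The log2 rise of CHAC1 ran from 3.84 to 4.69 with CCF642 and from 3.51 to 4.35 with CCF642-34 over all alternatives. Of the other named genes, 767 of 793 values kept direction and call.

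Over all genes, the count past 2-fold was 717, 429 and 34 for CCF642, CCF642-34 and the direct comparison, and with a pseudocount of 4 it was 470, 255 and 21. A pseudocount of 0.1 gave 95 in the direct comparison and a mean of at least 5 CPM gave 21. Between the compounds 33.4% of all genes were called in the main fit. Fewer of all genes were called with any 1 library left out, and the fewest without CCF642-34 replicate 1. Of the 86 list genes 40 were called between the compounds, and 25 to 37 with 1 library left out, the lowest without CCF642-34 replicate 1. Scaling by library size alone shifted the median of all genes to −0.13, −0.08 and 0.05 and the split of calls to 2528 higher and 4738 lower (34.8% higher against 50.4%), 2497 and 3972 (38.6% against 51.6%), and 2406 and 1488 (61.8% against 47.7%). For CCF642 against DMSO, edgeR called 6923 genes and DESeq2 5864, beside 6973. These count tests were not run for the other comparisons.

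Same-numbered replicates deviated with correlations of −0.05, −0.09 and 0.13, which gave little sign of pairing by number. With 2 libraries a group, these values cannot exclude a shared batch or culture. With a replicate block 7012, 6420 and 3803 genes were called, beside 6973, 6362 and 3688, and no call of the 10 genes changed. With 2 libraries a group, each error rests on the spread pooled over genes, and a library left out leaves 1 whose spread is assumed to be like the others'.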
